A study of Mus musculus with 10 samples.

Results

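The 10 genes described here encode the effector cytokines and secreted chemokines of CD8+ T cells: Ifng, Tnf, Lta, Il2, Il10, Csf2, Ccl3, Ccl4, Ccl5 and Xcl1. They were taken by name from the 23992 gene symbols of the deposited tables, with 1 transcript per symbol, the one with the most reads over all 10 libraries. All 10 were found, and all 10 were among the 14357 genes that passed the filter on low counts. Il2 reached 10 reads in both libraries only of NC, and Il10 only of IL-2 and IL-21, so these genes passed through the groups where they were high, and counts over the 10 are descriptions. The study sequenced mRNA from CD8+ T cells isolated from the spleens of C57BL/6N mice, whose age was not stated. All 5 groups were first activated for 48 h with plate-bound anti-CD3 (2 µg/ml) and soluble anti-CD28 (2 µg/ml), which stand in for antigen and costimulation, and were then pooled, washed and cultured again. The NC group received no cytokine, the IL-2 group human IL-2 at 100 IU/ml and the IL-21 group mouse IL-21 at 100 ng/ml, each for 48 h. The IL-2 + LDHi and IL-21 + LDHi groups also had 1 µM of NCI-737, an inhibitor of lactate dehydrogenase (LDH), both during activation and after replating. No group had the inhibitor without a cytokine, so a change laid down during activation cannot be told apart from one in the response to the cytokine. Each group had 2 libraries. No label ties a replicate to a mouse or a culture, so the p values speak only to variation among these 10 libraries, and that variation may be technical.

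Cytokines carry the effector programme of a CD8+ T cell beyond the contact with its target. Interferon gamma (Ifng), tumour necrosis factor (Tnf) and lymphotoxin alpha (Lta) act on macrophages, endothelium and tumour cells. IL-2 (Il2) is a growth factor for T cells, GM-CSF (Csf2) one for myeloid cells, and IL-10 (Il10) restrains inflammation. CCL3, CCL4 and CCL5 recruit T cells, monocytes and NK cells, and XCL1 calls in cross-presenting dendritic cells through XCR1. Their genes are switched on by the T cell receptor through NFAT, AP-1 and NF-kB, are tuned by STAT proteins downstream of IL-2 and IL-21, and give mRNAs that are short-lived where their 3′ UTRs hold AU-rich elements. LDH converts pyruvate to lactate, the last step of the aerobic glycolysis on which activated T cells rely.

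The promoters of Ifng, Tnf, Lta and Ccl3 are shown as examples of genes that differed in which cytokine they rose with. RefSeq promoters of GRCm38.p6 (300 bases, of which 250 lie before the start site) were found for 7 of the 10 genes, and not for Il10, Ccl4 and Ccl5. Each is printed 5′ to 3′ on the gene's own strand, and capitals mark matches on either strand to 7 motifs of factors that act on cytokine genes, spelled out after the sequences. The Ifng window is chr10:118440796-118441095 on the plus strand. Those of Tnf (chr17:35201958-35202257), Lta (chr17:35205302-35205601) and Ccl3 (chr11:83649329-83649628) are on the minus strand.
Ifng: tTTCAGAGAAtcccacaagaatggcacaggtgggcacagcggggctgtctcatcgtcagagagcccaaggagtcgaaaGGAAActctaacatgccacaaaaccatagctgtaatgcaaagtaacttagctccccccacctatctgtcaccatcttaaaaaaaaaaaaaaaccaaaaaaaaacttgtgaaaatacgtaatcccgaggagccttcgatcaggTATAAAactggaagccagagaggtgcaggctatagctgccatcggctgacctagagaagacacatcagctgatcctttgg
Tnf: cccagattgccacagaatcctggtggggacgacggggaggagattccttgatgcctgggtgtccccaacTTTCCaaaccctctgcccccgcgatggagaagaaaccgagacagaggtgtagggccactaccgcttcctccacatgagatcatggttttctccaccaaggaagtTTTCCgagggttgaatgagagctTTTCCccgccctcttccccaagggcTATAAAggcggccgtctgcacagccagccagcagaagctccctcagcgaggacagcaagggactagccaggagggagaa
Lta: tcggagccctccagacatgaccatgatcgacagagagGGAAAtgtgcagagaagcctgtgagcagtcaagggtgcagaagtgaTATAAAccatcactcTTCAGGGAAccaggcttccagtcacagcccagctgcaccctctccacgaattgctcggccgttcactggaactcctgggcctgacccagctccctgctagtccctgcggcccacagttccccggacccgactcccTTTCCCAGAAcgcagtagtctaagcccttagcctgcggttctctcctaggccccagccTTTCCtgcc
Ccl3: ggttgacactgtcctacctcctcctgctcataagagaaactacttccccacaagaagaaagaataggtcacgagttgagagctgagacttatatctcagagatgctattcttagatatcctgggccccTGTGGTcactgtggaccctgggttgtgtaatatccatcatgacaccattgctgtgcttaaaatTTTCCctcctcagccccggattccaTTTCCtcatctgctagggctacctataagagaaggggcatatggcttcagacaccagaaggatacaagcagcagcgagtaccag
The NFAT letters GGAAA were found in all 7 promoters, as in 61.3% of all 32851 promoters of this length. STAT letters (the GAS form TTCNNNGAA) were found in Ifng and Lta, against 8.3% of all promoters, and Lta held 2 matches, of which 1 overlaps an NFAT match. The TATA box letters TATAAA began at -30 from the start site in Ifng, at -29 in Tnf and at -31 in Il2, and were found in 13.6% of all promoters. The RUNX letters TGTGGT were found in Ccl3 and Xcl1, against 16.8%. None of the windows held the AP-1 letters TGANTCA, the T-box letters AGGTGTGA, or an NF-kB site written as GGG and TTTCC with any 2 bases between them. The Lta window also holds TATAAA, but it is drawn around the start at 35205351, while the RefSeq gene runs to 35205578. A match describes letters only.

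The 3′ UTRs of these mRNAs differed in AU-rich elements, sites that decay factors such as ZFP36 bind, and a stretch of 30 bases with the most ATTTA pentamers (in capitals) is shown for 6 genes with and without the longer nonamer TTATTTATT.
Tnf: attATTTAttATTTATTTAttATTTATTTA
Csf2: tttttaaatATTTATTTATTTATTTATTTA
Il2: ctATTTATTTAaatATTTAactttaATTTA
Lta: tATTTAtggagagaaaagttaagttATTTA
Ifng: aacctATTTAttaatATTTAaaactATTTA
Ccl3: gactcttcacttgaaattttATTTAATTTA
The 3′ UTR of Csf2 held 9 pentamers in 317 bases and that of Tnf 8 in 764, with 4 and 5 nonamers. Il2 had 7 pentamers, Ifng 6, Il10 6, Ccl3 5, Lta 3, Ccl4 2, Xcl1 1 and Ccl5 0. Nonamers were present in 4 of 10 genes (Tnf, Csf2, Il2 and Lta), against 7.19% of the 13093 tested genes with a matched 3′ UTR, whose median was 1 pentamer.

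The tables hold read counts per transcript and RPKM, a count scaled to transcript length and library total, which allows levels to be compared between genes. Kept transcripts held 27137186 to 46656186 reads per library, and IL-21 replicate 2 had both the fewest and the lowest share of the authors' total (59.9%, against 69.1 to 79.4% elsewhere). Markers of CD8+ T cells, 9 of 10 of them listed, summed to between 1551 and 2252 RPKM in every library, with none at 0 reads in a group. Basophil and mast cell markers, 9 of 9 listed, summed to 328 to 686 RPKM in NC, 107 to 138 in IL-21, 4.26 to 5.10 in IL-2, 1.77 to 1.94 in IL-2 + LDHi and 1.12 to 1.93 in IL-21 + LDHi. Tpsb2 was at 0 reads in IL-2, IL-21 and IL-2 + LDHi. Macrophage and monocyte markers, 11 of 12 listed, summed to 231 to 292 in NC, 131 to 148 in IL-21, 63.8 to 72.6 in IL-2, 83.4 to 91.8 in IL-2 + LDHi and 104 to 107 in IL-21 + LDHi, with C1qb at 0 reads in IL-2. Ctss gave most of this sum in IL-2 (51.8 and 57.9 RPKM) and in IL-21 + LDHi (92.5 and 88.0). Lyz2 went from 113 and 149 RPKM in NC to 1.66 and 1.11 in IL-2 and 2.06 and 3.81 in IL-21 + LDHi. Against NC, 10 of the 11 were called lower and 0 higher in IL-2 (24.8% and 25.6% of all tested genes). In IL-21 + LDHi 9 were called lower and 1 higher (23.6% and 13.5%). Neutrophil markers, 7 of 8 listed, summed to 35.0 to 49.7 in NC, 12.03 to 23.3 in IL-21 and at most 0.338 in the other groups. NK cell markers, 7 of 7 listed, summed to 29.5 to 38.0 in NC, 5.40 to 6.46 in IL-2, 18.2 to 19.7 in IL-21, 21.2 to 21.3 in IL-2 + LDHi and 2.17 to 3.06 in IL-21 + LDHi. Most of the NK sum in NC was Tyrobp (23.4 and 31.4 RPKM), which myeloid cells also express. In bulk RNA such as this, fewer cells of a type and less RNA per cell cannot be told apart.

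**Figure D1:**
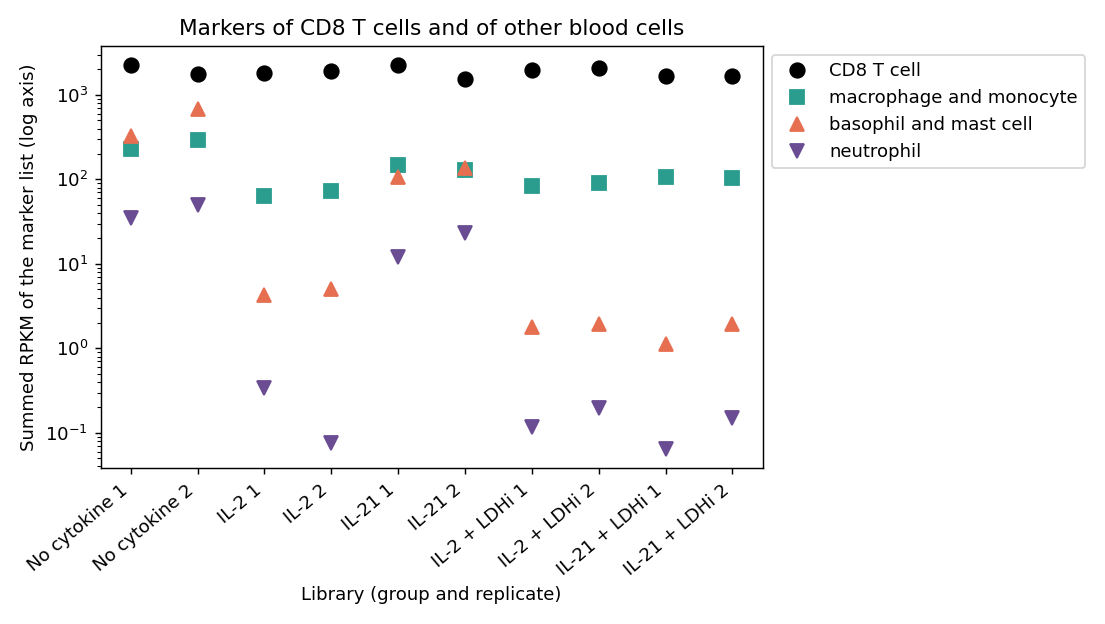
Summed RPKM (log axis) of 4 marker lists in each of the 10 libraries, 1 point per list and library. CD8+ T cell markers stay between 1551 and 2252, while basophil and mast cell markers run from 328 to 686 in NC down to 1.12 to 1.94 in the groups with the inhibitor.

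Ifng (ENSMUSG00000055170.4, chromosome 10, 118441046 to 118445892, GRCm38), the main macrophage-activating cytokine of CD8+ T cells, was highest with IL-21. It measured 1.40 and 1.01 RPKM in the NC libraries, 3.35 and 4.36 in IL-2, and 25.5 and 18.4 in IL-21. With the inhibitor it measured 4.24 and 4.25 in IL-2 + LDHi and 0.507 and 0.281 in IL-21 + LDHi. Both IL-21 libraries lay above all others and both IL-21 + LDHi libraries below all others, with IL-2 and IL-2 + LDHi overlapping in between. The highest group mean was 55.8 times the lowest. Exons of the predicted gene Gm49751 overlap Ifng on the same strand, and reads there cannot be told apart.

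Tnf and Lta, neighbours 1157 bp apart on chromosome 17 (35199381 to 35202007 and 35203165 to 35205351, minus strand), encode related trimeric cytokines that share the TNF receptors. Tnf measured 2.80 and 3.19 RPKM in NC, 15.7 and 11.9 in IL-2, and 3.66 and 2.82 in IL-21. Under LDH inhibition the values were 13.1 and 14.6 in IL-2 + LDHi and 0.210 and 0.350 in IL-21 + LDHi. Lta measured 9.11 and 7.08 RPKM in NC, 38.5 and 39.0 in IL-2, and 1.51 and 1.36 in IL-21. The inhibitor groups stood at 48.1 and 46.0 in IL-2 + LDHi and 0.958 and 0.822 in IL-21 + LDHi. Both were high in the 4 libraries with IL-2 and lowest in IL-21 + LDHi. They parted in IL-21, where Tnf overlapped NC and Lta lay below it. The Lta to Tnf ratio of RPKM was 0.412 and 0.481 in the IL-21 libraries, and between 2.22 and 4.57 in the other 8. Tnf alone among the 10 had 2 listed transcripts, with 5982 and 5793 reads over all libraries, and the first was used. Beside these levels, markers of CD4+ helper cells, 6 of 6 listed, summed to 14.3 to 15.9 RPKM in NC, 24.4 to 26.8 in IL-2, 9.59 to 10.3 in IL-21, 22.6 to 23.3 in IL-2 + LDHi and 3.44 to 3.998 in IL-21 + LDHi. Cd4 itself was at 0.187 to 1.05 RPKM in every library, and the part of such cells was not tested.

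Il2, whose product is the T cell growth factor itself, was close to undetectable throughout (chromosome 3, 37120523 to 37125959). Its reads numbered 11 and 10 in NC, 1 and 1 in IL-2, and 5 and 2 in IL-21. With the inhibitor there were 6 and 6 in IL-2 + LDHi and 0 and 0 in IL-21 + LDHi, and no library passed 0.234 RPKM. A count of 0 over the IL-21 + LDHi group allows up to 3 counts. NC thus held the most Il2 reads, and the group given IL-2 alone held 2.

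Il10, which encodes a cytokine that dampens inflammation (chromosome 1, 131019845 to 131024974), was a gene of the cytokine groups without inhibitor. It had 2 and 2 reads in NC (0.0272 and 0.0339 RPKM), 66 and 25 in IL-2 (1.02 and 0.346), 348 and 220 in IL-21 (5.01 and 3.72), 0 and 0 in IL-2 + LDHi, and 9 and 1 in IL-21 + LDHi (0.140 and 0.0153). The IL-21 libraries lay highest and the IL-2 libraries next, without overlap, and NC and IL-21 + LDHi overlapped.

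Csf2 encodes GM-CSF, which acts on myeloid cells (chromosome 11, 54247271 to 54249667). It measured 0.635 and 0.558 RPKM in NC, 3.35 and 2.59 in IL-2, and 0.874 and 1.62 in IL-21. Under LDH inhibition the values were 0.678 and 0.764 in IL-2 + LDHi and 0.0395 and 0.0193 in IL-21 + LDHi, the last from 2 reads and 1 read. The IL-2 libraries were highest, and the IL-21 + LDHi libraries stood apart at the bottom. Exons of predicted genes overlap Csf2 (Gm12223) and Xcl1 (Gm20743) on the opposite strand, and without a stated strand setting reads there cannot be told apart.

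Ccl3 and Ccl4, which encode paired chemokines that attract T cells and monocytes and by GENCODE lie 13228 bp apart on chromosome 11 (83647844 to 83649355 and 83662584 to 83664683), had their peak in IL-21. In RefSeq the Ccl4 gene begins at 83648624, inside Ccl3 (83647843 to 83649378) on the opposite strand. Whether the counted transcripts share reads was not tested. Ccl3 measured 3.95 and 8.38 RPKM in NC, 1.25 and 3.75 in IL-2, and 20.2 and 21.9 in IL-21. The inhibitor groups stood at 2.92 and 3.60 in IL-2 + LDHi and 0.542 and 0.429 in IL-21 + LDHi. Ccl4 measured 3.92 and 4.63 RPKM in NC, 1.59 and 3.45 in IL-2, and 51.2 and 25.3 in IL-21. With the inhibitor it measured 4.39 and 3.71 in IL-2 + LDHi and 1.20 and 0.936 in IL-21 + LDHi. For both, the IL-21 libraries stood above the rest and the IL-21 + LDHi libraries below. The replicates of Ccl3 in IL-2 and in NC, and those of Ccl4 in IL-2 and in IL-21, differed by 2-fold or more.

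Ccl5, a T cell chemokine that memory and effector CD8+ T cells store as mRNA, lies 117325 bp from Ccl3 (chromosome 11, 83525778 to 83530518) and was by far the most abundant of the 10 per length. It measured 336 and 171 RPKM in NC, 61.8 and 65.9 in IL-2, and 277 and 133 in IL-21. Under LDH inhibition the values were 71.3 and 76.3 in IL-2 + LDHi and 35.9 and 47.6 in IL-21 + LDHi. NC and IL-21 overlapped and were high, the IL-2 groups were lower, and IL-21 + LDHi lay lowest. Its highest group mean was 6.07 times its lowest, the narrowest range among the 8 genes with reads in every group.

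Xcl1, the XCR1 ligand that draws cross-presenting dendritic cells (chromosome 1, 164931644 to 164935527), had another order. It measured 16.6 and 17.4 RPKM in NC, 6.17 and 14.9 in IL-2, and 15.4 and 13.3 in IL-21. The inhibitor groups stood at 29.2 and 28.2 in IL-2 + LDHi and 0.365 and 1.03 in IL-21 + LDHi. The IL-2 + LDHi libraries were highest, IL-2 and IL-21 overlapped, and IL-21 + LDHi lay below every other library.

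**Figure D2:**
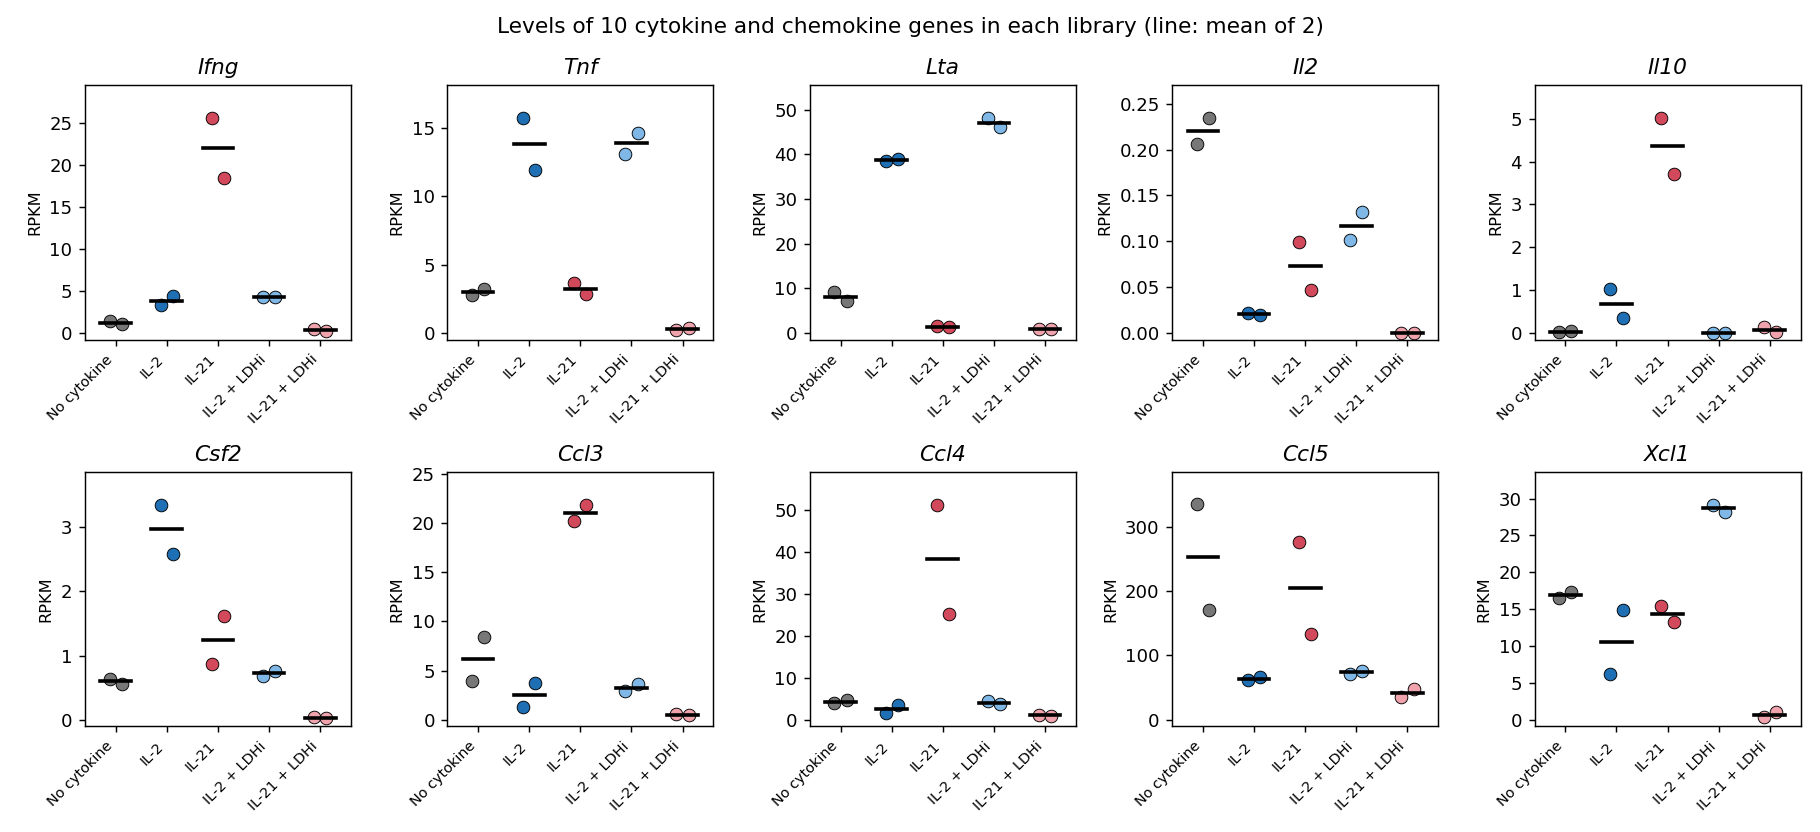
RPKM of the 10 genes in each library by group (points), with the mean of the 2 libraries as a line. Each panel has its own linear axis, from below 0.25 RPKM for Il2 to 336 for Ccl5. In all panels except Il10 the IL-21 + LDHi libraries lie lowest.

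The first question was what IL-2 does to these genes in activated cells. Every cytokine gene of the set except Il2 rose, and part of the chemokines fell. Ifng rose by 1.65 ± 0.25 (log2 fold change ± SE, n = 2 libraries per group here and below; edgeR adjusted p = 0.000696), Tnf by 2.19 ± 0.21 (5.61e-05), Lta by 2.24 ± 0.14 (7.19e-06), Csf2 by 2.29 ± 0.41 (0.00158) and Il10 by 4.39 ± 0.89 (0.00418). Ccl5 fell by 2.00 ± 0.32 (adjusted p = 0.00094). Il2 itself fell, 11.0-fold on 2 against 21 reads (95% counting interval 2.69 to 96.7, adjusted p = 0.00629), a call lost with DESeq2 (0.0585) and without IL-2 replicate 1 (0.0548) or 2 (0.0618). The Il10 value was 3.41 without IL-2 replicate 1 and 4.99 without IL-2 replicate 2. For Ccl4 (-0.78 ± 0.36, adjusted p = 0.102) and Xcl1 (-0.71 ± 0.39, adjusted p = 0.159) no difference was detectable, with 95% intervals from -1.60 to 0.04 and from -1.59 to 0.17. In all 5 of 10 genes were called higher and 3 lower, where 50.5% of all tested genes were called (25.6% higher and 24.8% lower), and the median change of the 10 was 0.47 against -0.03 over all tested. The remaining gene called lower, Ccl3 (-1.32 ± 0.49, adjusted p = 0.0482), was at -0.66 without NC replicate 2 (adjusted p = 0.330) and -0.74 without IL-2 replicate 1 (0.236), and was not called without any single library of the inhibitor groups either (-1.31, adjusted p 0.0668 to 0.0710). It was also not called with RLE factors (0.0506), without the low-count filter (0.0954), with limma (0.0509) or on the compared groups alone (0.0661), and stood at -2.30 without IL-2 replicate 2. In that fit Ccl4 (-1.42, 0.0219) and Xcl1 (-1.45, 0.0218) were called lower, and Ccl4 also without IL-21 replicate 2 (-0.77, 0.0497). The marker sums of basophils, macrophages, neutrophils and NK cells were also lower in IL-2 than in NC, as given above. Of 7 NK cell markers 1 was called higher and 2 lower, while Tyrobp went from 23.4 and 31.4 RPKM to 1.28 and 1.73. Of 11 macrophage and monocyte markers 10 were called lower and 0 higher. The part of such cells in the lower chemokine levels was not tested.

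IL-21 gave another set. Compared with NC, Ifng, Il10 and Ccl4 rose and Lta fell. Il10 rose by 7.23 ± 0.86 (edgeR adjusted p = 0.00218), from 4 reads to 568 over each group, and Ccl4 by 3.28 ± 0.37 (0.001). Lta fell by 2.34 ± 0.16 (adjusted p = 6.13e-05). Ifng was 20.1-fold higher (adjusted p = 4.59e-05). Tnf (0.26 ± 0.21, interval -0.21 to 0.74), Ccl5 (-0.19 ± 0.31, interval -0.89 to 0.52) and Xcl1 (-0.09 ± 0.39, interval -0.96 to 0.78) showed no detectable difference, and neither did Il2 (7 against 21 reads, adjusted p = 0.176) or Csf2 (1.26 ± 0.41, adjusted p = 0.0823). In all 4 of 10 genes were called higher and 1 lower, where 11.5% of all tested genes were called (5.65% higher and 5.89% lower), with a median of 0.76 against -0.01. Ccl3 (1.94 ± 0.48, adjusted p = 0.033) was at 1.49 without NC replicate 1 (0.137), and not called without any single library of the inhibitor groups (1.94, adjusted p 0.0602 to 0.0606), without the low-count filter (0.0646) or on the compared groups alone (0.125). It was at 2.59 without NC replicate 2. Csf2 was called only without IL-21 replicate 1, at 1.74 (adjusted p = 0.00551). Basophil, macrophage and neutrophil marker sums were lower in IL-21 than in NC, while of 7 NK cell markers 2 were called higher and 1 lower, and the part of such cells was not tested.

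Set side by side, the cytokines divided the genes between them. In IL-21 against IL-2, Ifng, Il10, Ccl3, Ccl4 and Ccl5 were higher and Tnf and Lta lower. Ccl4 was 16.6-fold higher (4.05 ± 0.38, edgeR adjusted p = 6.25e-05), Ccl3 3.26 ± 0.51 higher on the log2 scale (0.000889), Il10 2.84 ± 0.60 (0.00579) and Ccl5 1.82 ± 0.32 (0.0018). Tnf was lower (-1.93 ± 0.21, adjusted p = 0.00013) and Lta 24.0-fold lower. Csf2 missed the threshold (-1.04 ± 0.39, adjusted p = 0.0504), Xcl1 showed no detectable difference (0.62 ± 0.39, adjusted p = 0.215), and Il2 had 7 against 2 reads, a ratio of 4.16 (0.793 to 41.1). Thus 5 of 10 genes were called higher and 2 lower, where 49.6% of all tested were called (24.9% higher and 24.7% lower), with a median of 1.86 against 0.02. Without IL-2 replicate 2, Ccl3 was at 4.24 and Ccl4 at 4.70, and Il10 was then at 2.24, or at 3.82 with the other IL-2 library left out. Without IL-21 replicate 2, Csf2 was called lower (-1.73, adjusted p = 0.00253), and without IL-2 replicate 2, Xcl1 was called higher (1.37, 0.0306). Csf2 was also called lower with RLE factors (0.0487), without the low-count filter (0.0387) and with limma (0.00409). Basophil and mast cell markers summed to 107 to 138 RPKM in IL-21 and 4.26 to 5.10 in IL-2, and NK and macrophage sums were higher in IL-21 too. Mast cells, macrophages and NK cells can transcribe Ccl3, Ccl4 and Il10 or Ifng, and the part of such cells in the higher levels in IL-21 was not tested.

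With IL-2 the inhibitor lowered Il10 and Csf2 and raised Xcl1 and Il2. Il10, at 66 and 25 reads in IL-2, had 0 reads in both IL-2 + LDHi libraries, at least 32.9-fold lower (edgeR adjusted p = 0.00206). Csf2 fell by 2.08 ± 0.40 (adjusted p = 0.00349), to 0.678 and 0.764 RPKM beside 0.635 and 0.558 in NC. Xcl1 rose by 1.41 ± 0.39 (adjusted p = 0.0192) and Il2 by a ratio of 5.53 on 12 against 2 reads (1.23 to 50.8, adjusted p = 0.0471). No difference was detectable for the other 6. The 95% interval of the change was -0.44 to 0.64 for Ifng, -0.49 to 0.41 for Tnf and -0.07 to 0.55 for Lta. It was -0.77 to 1.44 for Ccl3, -0.17 to 1.46 for Ccl4 and -0.54 to 0.88 for Ccl5. So 2 of 10 genes were called higher and 2 lower, where 39.4% of all tested were called (17.8% higher and 21.6% lower), with a median of 0.20 against 0.01, so the share called was that of all genes. Xcl1 was not called without IL-2 replicate 1 (0.92, adjusted p = 0.109), IL-2 + LDHi replicate 1 (1.37, 0.0859) or IL-2 + LDHi replicate 2 (1.44, 0.0723), nor on the compared groups alone (0.0623), and was at 2.18 without IL-2 replicate 2, and the Il2 call was lost without any 1 of 8 libraries, all but those of IL-21 (adjusted p 0.0673 to 0.214), with DESeq2 (0.225), without the low-count filter (0.140) and with the replicate block (0.0710). The count of called genes fell from 4 to 2 without IL-2 replicate 1 or either IL-2 + LDHi library. Without IL-2 replicate 2, Ccl4 was called higher (1.31, 0.0399). Beside the higher Xcl1, NK cell markers summed to 21.2 to 21.3 RPKM in IL-2 + LDHi and 5.40 to 6.46 in IL-2. Among them Ncr1 was at 4.34 and 3.90 against 0.124 and 0.0618. Of 11 macrophage and monocyte markers 7 were called higher and 1 lower, against 17.8% and 21.6% of all tested genes. Of 8 tested dendritic cell markers 4 were called higher and 1 lower, and of 8 tested basophil and mast cell markers 0 and 2. The part of such cells in these changes was not tested.

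With IL-21 the inhibitor lowered every one of the 10 genes. The log2 change was -5.82 ± 0.30 for Ifng (edgeR adjusted p = 1.98e-06), -5.48 ± 0.59 for Ccl3 (0.000155), -5.15 ± 0.41 for Ccl4 (2.53e-05) and -4.38 ± 0.49 for Xcl1 (0.000198). It was -3.55 ± 0.26 for Tnf (1.34e-05) and -2.29 ± 0.33 for Ccl5 (0.000852). Il10 fell by 5.81 ± 0.76 (0.000812), from 568 to 10 reads. Csf2 was 42.1-fold lower on 3 against 124 reads (14.1 to 207.1), and Il2 at least 2.38-fold lower on 0 against 7 reads. The smallest change was that of Lta, already low in IL-21 (-0.72 ± 0.17, adjusted p = 0.0129). All 10 of 10 genes were called lower and 0 higher, where 31.3% of all tested genes were called (20.3% lower and 11.1% higher). The median change was -5.08 (-4.76 with Il2 at its bound), against -0.03 over all tested. The Lta call was lost without IL-21 + LDHi replicate 2 (-0.60, adjusted p = 0.107), with limma (0.0843) and on the compared groups alone (0.183). That of Il2 (0.0234) was lost without NC replicate 2, IL-21 replicate 1 or any single library of the inhibitor groups (0.0505 to 0.113), with DESeq2 (0.0791), with limma (0.0897) and without the low-count filter (0.0556). Without IL-21 + LDHi replicate 1 Il10 was at -8.04, and without replicate 2 it was at -4.95 and Xcl1 at -5.30. The fitted log2 value of Csf2 was -5.39, and -4.69 without IL-21 replicate 2. Basophil and mast cell markers summed to 107 to 138 RPKM in IL-21 and 1.12 to 1.93 in IL-21 + LDHi. NK cell markers summed to 18.2 to 19.7 and 2.17 to 3.06, with 6 of 7 called lower and 0 higher. Neutrophil markers summed to 12.03 to 23.3 and at most 0.150, with 5 of 5 tested called lower. Of 11 macrophage and monocyte markers 7 were called lower and 1 higher. The part of such cells in the lower levels was not tested.

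**Figure D3:**
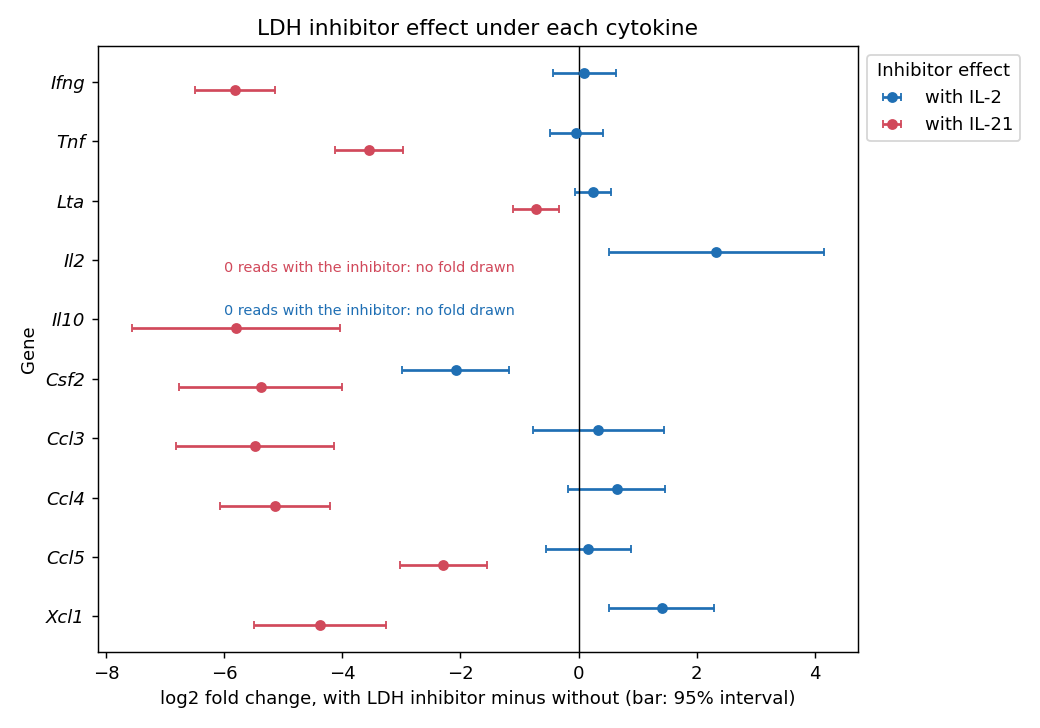
Change with the LDH inhibitor in IL-2 (blue) and in IL-21 (red) for each gene, as log2 fold change with its 95% interval (n = 2 libraries per group). With IL-21 all 9 intervals drawn lie below 0, and with IL-2 those of Ifng, Tnf, Lta, Ccl3, Ccl4 and Ccl5 include 0.

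The difference between these inhibitor effects was tested as an interaction, the change in IL-21 minus the change in IL-2. In simulated data this term called more unchanged genes than its threshold allows, so its adjusted p values may run low. It was called and negative for 9 of 10 genes and called positive for 0, where 21.7% of all tested genes were called (13.8% lower and 7.98% higher). Ifng was at -5.92 ± 0.38 (edgeR adjusted p = 1.64e-05), Ccl3 at -5.82 ± 0.76 (0.000898), Ccl4 at -5.79 ± 0.54 (0.000146) and Xcl1 at -5.78 ± 0.63 (0.000341). Tnf stood at -3.51 ± 0.33 (0.000142), Csf2 at -3.30 ± 0.77 (0.0156), Ccl5 at -2.46 ± 0.45 (0.00513) and Lta at -0.96 ± 0.22 (0.0142). Il2 was called too (adjusted p = 0.0119), on reads of 7 to 0 in IL-21 and 2 to 12 in IL-2. For Il10, at 0 reads in IL-2 + LDHi and 10 in IL-21 + LDHi, no difference was detectable (adjusted p = 0.397). The median of the 8 genes with reads in all 4 groups was -4.65, against -0.08 over all tested. On log2(RPKM + 1) the Csf2 value turned to 0.093 (limma adjusted p = 0.824), and the Lta call was lost without any of 4 single libraries (IL-2 replicates 1 and 2, IL-2 + LDHi replicate 1, IL-21 + LDHi replicate 2; -0.96 to -0.84, adjusted p 0.0510 to 0.0750) and with limma (0.0505). Without IL-2 replicate 2, Ccl3 was at -6.81, Ccl4 at -6.45 and Xcl1 at -6.55, without IL-21 + LDHi replicate 2 Xcl1 was at -6.71, and without IL-21 replicate 2 Csf2 was at -2.61. The Csf2 call was lost without IL-2 replicate 2 (-3.12, 0.0521) and without IL-21 + LDHi replicate 1 (-3.86, 0.0503) or 2 (-2.89, 0.0876). The Il2 call was lost without IL-2 replicate 2 (0.0513) or IL-2 + LDHi replicate 2 (0.0565).

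Under the inhibitor 8 of the 10 genes were lower with IL-21 than with IL-2. Lta was 46.6-fold lower in IL-21 + LDHi than in IL-2 + LDHi (-5.54 ± 0.17, edgeR adjusted p = 9.3e-08), Tnf 43.4-fold (-5.44 ± 0.26, 9.33e-07), Xcl1 35.9-fold (-5.17 ± 0.50, 7.33e-05) and Ifng 9.49-fold (-3.25 ± 0.29, 4.01e-05). Csf2 was 21.6-fold lower on 3 against 82 reads (7.13 to 107), Il2 at least 3.16-fold lower, and Ccl3 (-2.56 ± 0.57, 0.0100) and Ccl4 (-1.74 ± 0.39, 0.0103) were lower too. Ccl5 (-0.64 ± 0.32, interval -1.36 to 0.08) and Il10, at least 4.22-fold higher on 10 against 0 reads (adjusted p = 0.0684), were not called. Thus 8 of 10 genes were called lower and 0 higher, where 26.1% of all tested were called (16.7% lower and 9.38% higher), with a median of -3.79 (-2.90 with Il2 and Il10 at their bounds) against 0.01. The Ccl3 call was lost without either IL-21 + LDHi library (adjusted p = 0.0589 and 0.0854), and that of Ccl4 without IL-2 + LDHi replicate 1 (0.0608) or IL-21 + LDHi replicate 2 (0.0928). The Il2 call (0.0143) was lost without any 1 of these 4 libraries (0.0625 to 0.0851), and Il10 was called higher without IL-21 + LDHi replicate 2 (0.0366), with DESeq2 (0.00939) and with the replicate block (0.0468). Xcl1 was at -6.09 without IL-21 + LDHi replicate 2. In this comparison basophil and mast cell markers were at 1.12 to 1.94 RPKM in all 4 libraries and neutrophil markers at 0.196 or less. NK cell markers were lower in IL-21 + LDHi, 2.17 to 3.06 RPKM against 21.2 to 21.3, and their part was not tested.

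Measured from NC, Ifng, Tnf and Lta were higher in IL-2 + LDHi and lower in IL-21 + LDHi, and Ccl5 was lower in both. In IL-2 + LDHi, Ifng rose by 1.75 ± 0.25 (edgeR adjusted p = 0.00124), Tnf by 2.15 ± 0.21 (0.000173) and Lta by 2.48 ± 0.14 (2.05e-05), and Ccl5 fell by 1.84 ± 0.32 (0.0035). These 3 genes called higher and 1 lower compare with 24.2% of all tested genes called (10.9% higher and 13.3% lower), and the median was 0.04 against -0.03. Csf2, at 0.21 ± 0.41, showed no detectable difference from NC. In IL-21 + LDHi, 9 of 10 genes were called lower and 0 higher, where 37.1% of all tested were called (23.6% lower and 13.5% higher), with a median of -3.18 (-2.86 with Il2 at its bound) against -0.01. The log2 change was -4.47 ± 0.49 for Xcl1 (adjusted p = 0.000126), -3.54 ± 0.57 for Ccl3 (0.00118), -3.29 ± 0.26 for Tnf (1.64e-05) and -3.06 ± 0.16 for Lta (2.15e-06). It was -2.48 ± 0.33 for Ccl5 (0.000391), -1.87 ± 0.39 for Ccl4 (0.00492) and -1.49 ± 0.29 for Ifng (0.00366). Csf2 was 18.8-fold lower (6.16 to 93.8) and Il2 at least 6.28-fold lower, while Il10, at 10 against 4 reads, showed no detectable difference (adjusted p = 0.380). The Ccl4 call was lost without IL-21 + LDHi replicate 2 (-1.69, 0.0517), where Xcl1 was at -5.39, and Ccl3 was at -2.89 without NC replicate 2. Comparisons against NC share its 2 libraries, and those between inhibitor and cytokine groups share libraries likewise, so they are given side by side only. Marker sums of basophils, macrophages and neutrophils were lower in both inhibitor groups than in NC. Of 7 NK cell markers 4 were called higher and 2 lower in IL-2 + LDHi (median 1.31) and 0 higher and 5 lower in IL-21 + LDHi (median -2.19), and the part of such cells was not tested.

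**Figure D4:**
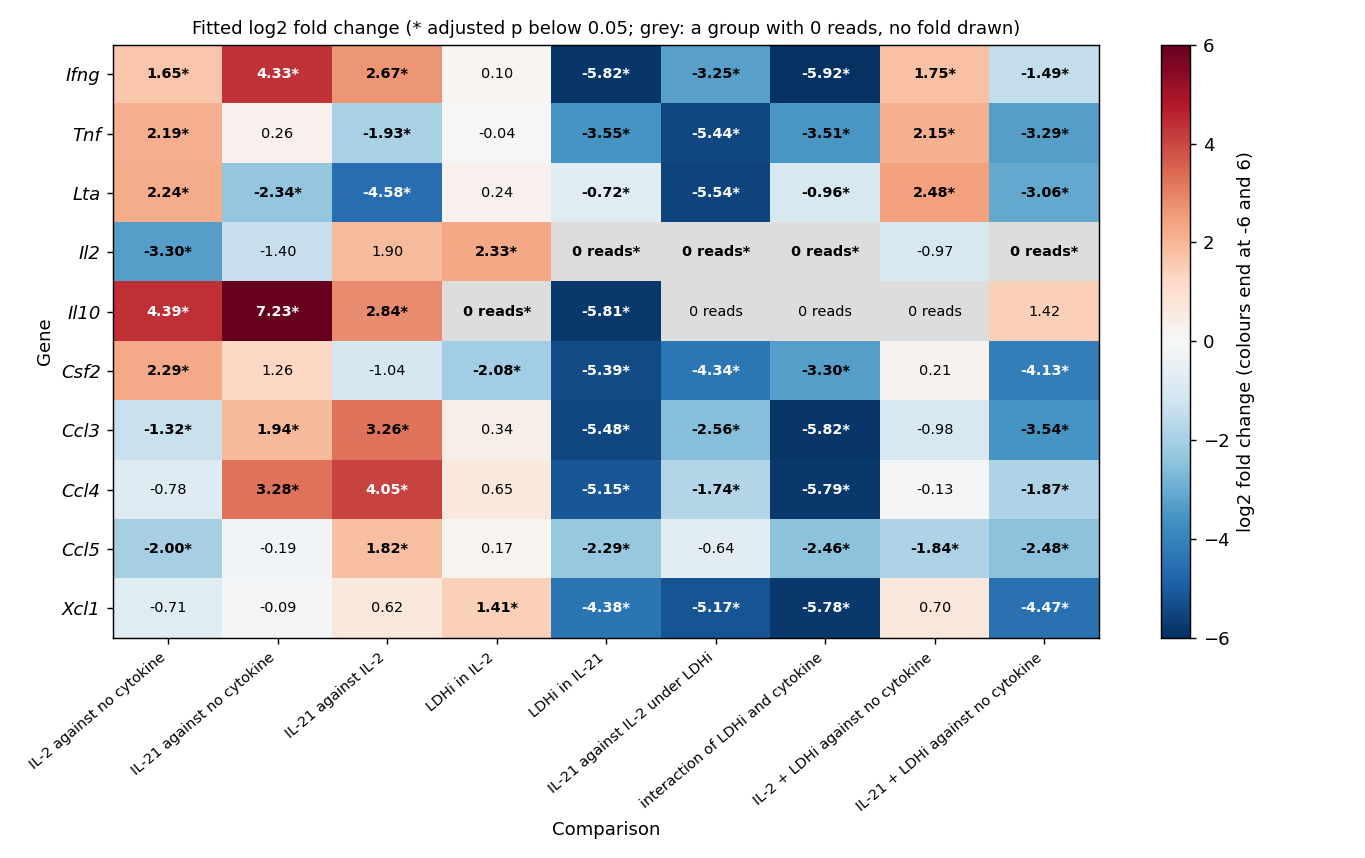
Fitted log2 fold change (first group minus second) of each gene in 9 comparisons, with an asterisk where the edgeR adjusted p is below 0.05 and grey where a group had 0 reads. The columns for the inhibitor in IL-21 and for IL-21 + LDHi against NC hold called decreases in 10 and 9 of 10 genes, the inhibitor column for IL-2 in 2.

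The make-up of the secreted set changed with the group, as the summed RPKM of the 9 genes other than Ccl5 shows. It was 38.6 and 42.5 in the NC libraries, 71.0 and 80.3 in IL-2, and 123 and 88.3 in IL-21. With the inhibitor it measured 103 and 101 in IL-2 + LDHi and 3.97 and 3.88 in IL-21 + LDHi. Only the IL-21 + LDHi sums lay below NC. Lta gave 48.6 to 54.3% of the sum in IL-2 and 45.4 to 46.8% in IL-2 + LDHi, but 1.22 to 1.53% in IL-21. In IL-21 Ccl4 gave 28.6 to 41.4%, Ifng 20.7 to 20.8% and Ccl3 16.4 to 24.7%. Xcl1 was the leading gene in NC (40.9 to 42.9%). Ccl5, left out of the sum, made up 41.0 to 92.5% of the summed RPKM of all 10 genes in a library.

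**Figure D5:**
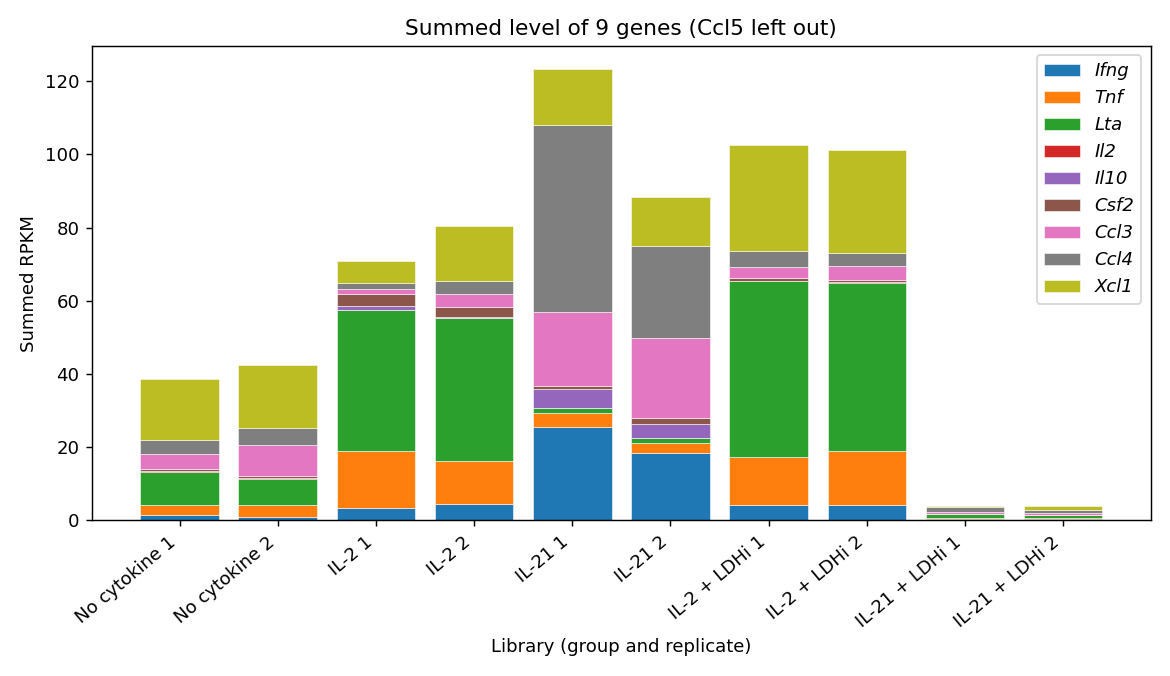
Summed RPKM of 9 genes (Ccl5 left out) in each library, stacked by gene. Green (Lta) leads in the libraries with IL-2, blue (Ifng), pink (Ccl3) and grey (Ccl4) in IL-21, and the IL-21 + LDHi bars end at 3.97 and 3.88.

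Other cytokine and chemokine genes were counted in a list of 46, of which 33 were tested. With the inhibitor in IL-21, 23 of 33 were lower and 1 higher (median -2.51, or -2.46 with genes at 0 reads at their bounds; 20.3% and 11.1% over all genes), while with the inhibitor in IL-2 8 were lower and 6 higher (median -0.14, or -0.20; 21.6% and 17.8% over all genes). Against NC, IL-21 + LDHi had 26 lower and 1 higher, IL-21 5 lower and 3 higher, and IL-2 17 lower and 11 higher, where 23.6% and 13.5%, 5.89% and 5.65%, and 24.8% and 25.6% of all genes were. Tnfsf11, which encodes the osteoclast factor RANKL, had the pattern of Lta: 0.524 and 0.664 RPKM in NC, 3.70 and 4.56 in IL-2, and 0.244 and 0.109 in IL-21. Under LDH inhibition the values were 5.48 and 4.78 in IL-2 + LDHi and 0.0274 and 0.0446 in IL-21 + LDHi. Fasl, the death ligand, was highest in IL-2 (12.6 and 11.3 RPKM) and fell with the inhibitor in IL-2 (-1.31 ± 0.25, edgeR adjusted p = 0.00338) and in IL-21 (-4.03 ± 0.33, 2.95e-05). Tnfsf14, which encodes the costimulatory ligand LIGHT, fell in IL-21 (-3.39 ± 0.21, 4.87e-06) and in IL-2 was not called (-0.45 ± 0.17, 0.0656).

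Ccl22, a chemokine for CCR4-bearing cells, showed opposite inhibitor effects. It measured 5.52 and 9.31 RPKM in NC, 0.200 and 0.290 in IL-2, and 4.73 and 5.18 in IL-2 + LDHi. In IL-21 it measured 1.46 and 2.19, and in IL-21 + LDHi 0.0113 and 0.022. Its rise in IL-2 (4.29 ± 0.40, edgeR adjusted p = 8.83e-05) and fall in IL-21 (-6.74 ± 0.59, 4.16e-05) differed by -11.02 ± 0.70 (1.65e-05). In IL-2 + LDHi it did not differ detectably from NC (-0.64 ± 0.33, 0.200). Dendritic cell markers, 9 of 9 listed, summed to 152 to 162 RPKM in NC, 23.4 to 27.5 in IL-2 and 32.3 to 34.8 in IL-2 + LDHi. They summed to 47.7 to 78.1 in IL-21 and 11.8 to 55.6 in IL-21 + LDHi, and the part of such cells in Ccl22 was not tested. Ebi3, a subunit of IL-27 and IL-35, measured 7.80 and 9.31 RPKM in IL-2 and 0.557 and 0.638 in IL-2 + LDHi, and was at 0 reads in IL-21 + LDHi. Tgfb1, which encodes the suppressive cytokine TGF-beta 1, fell with the inhibitor in both, with -0.63 ± 0.12 in IL-2 (0.00388) and -1.44 ± 0.13 in IL-21 (4.24e-05).

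Of 18 receptors for these products tested, 9 were lower and 1 higher with the inhibitor in IL-21 (median -0.79), where 20.3% and 11.1% of all genes were. With it in IL-2, 3 were lower and 2 higher (median -0.11), against 21.6% and 17.8%. Il2ra, the high-affinity IL-2 receptor chain, was 187 and 194 RPKM in IL-2, 35.1 and 37.2 in IL-2 + LDHi, 9.87 and 18.7 in IL-21, and 1.60 and 2.14 in IL-21 + LDHi. Il2rg, the receptor chain that IL-2 and IL-21 share, was higher in IL-21 than in IL-2 (1.15 ± 0.12, edgeR adjusted p = 9.79e-05). Ifngr2, the signalling chain of the interferon gamma receptor, was lower in IL-21 than in NC (-1.09 ± 0.16, 0.00444) and rose with the inhibitor there (1.31 ± 0.16, 0.000371), opposite to Ifng. Csf2rb and Csf2rb2, the receptor chains for GM-CSF that myeloid cells carry, were highest in NC (8.83 and 18.1, and 5.91 and 13.2 RPKM) and at most 0.523 RPKM in the IL-2 and inhibitor groups, like the basophil marker sums.

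Several transcription factors of cytokine genes fell with the inhibitor under both cytokines. Of 33 tested, 17 were lower and 5 higher in IL-2 (median -0.58), where 21.6% and 17.8% of all genes were, and 16 lower and 1 higher in IL-21 (median -0.44), where 20.3% and 11.1% were. Irf4, a factor induced by T cell receptor signalling, measured 32.4 and 32.0 RPKM in IL-2 and 4.28 and 4.03 in IL-2 + LDHi, and 5.95 and 5.51 in IL-21 and 0.553 and 0.362 in IL-21 + LDHi. Bhlhe40, known as a factor for Ifng and Csf2 and against Il10, was 51.5 and 56.0 RPKM in IL-2, 8.45 and 7.90 in IL-2 + LDHi, 23.2 and 19.2 in IL-21, and 2.91 and 4.12 in IL-21 + LDHi. Its changes, -2.76 ± 0.16 in IL-2 and -2.62 ± 0.16 in IL-21, did not differ detectably (interaction 0.14 ± 0.21, edgeR adjusted p = 0.696), unlike those of Ifng and Csf2.

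Nr4a1, an early gene of T cell receptor signalling, fell more in IL-21 (-4.21 ± 0.22) than in IL-2 (-1.42 ± 0.18; interaction -2.80 ± 0.28, edgeR adjusted p = 0.000205). Jun, a subunit of AP-1, measured 36.0 and 31.4 RPKM in IL-21 and 27.0 and 29.3 in IL-21 + LDHi. That difference was not called (-0.29 ± 0.14, adjusted p = 0.15), while in IL-2 Jun fell with the inhibitor (-1.73 ± 0.15, 6.0e-05). Its interaction was positive (1.44 ± 0.21, 0.00145). Fosl2, another AP-1 subunit, fell with the inhibitor in IL-2 (-1.94 ± 0.19, 0.000106) and was not called in IL-21 (0.41 ± 0.19, 0.125). The interaction for Fosl2 was positive too (2.35 ± 0.26, 0.000405). Bcl6, a repressor of the effector programme, was higher in IL-21 + LDHi than in IL-2 + LDHi by 2.59 ± 0.14 (1.32e-06).

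The last list held 12 tested factors that bind the AU-rich and stem-loop sites of 3′ UTRs, most of which destroy cytokine mRNA. In IL-21 against IL-2, 7 were higher and 2 lower (median 0.53), where 24.9% and 24.7% of all genes were. Under the inhibitor 3 were higher and 0 lower (median 0.19), against 9.38% and 16.7%. The inhibitor in IL-21 moved 2 up and 0 down (median 0.09; 11.1% and 20.3% of all genes), and in IL-2 3 up and 1 down (median 0.29; 17.8% and 21.6%), shares called near or below those of all genes. Zfp36, which encodes tristetraprolin, measured 159 and 126 RPKM in IL-21, 64.8 and 73.2 in IL-2, with 110 and 129 in IL-21 + LDHi, and 43.4 and 47.1 in IL-2 + LDHi. Zfp36l1 was higher in IL-21 than in IL-2 by 1.52 ± 0.20 (edgeR adjusted p = 0.000346), and for Zfp36l2 no difference was detectable there (-0.14 ± 0.15, 0.47). Zc3h12d, a regnase-family RNase, was 35.1 and 32.4 RPKM in IL-21 and 49.1 and 43.5 in IL-21 + LDHi, against 10.8 to 11.8 in the IL-2 groups. Rc3h1, which encodes the stem-loop binder roquin-1, and Tia1, a translational silencer, were lower in IL-2 than in NC (-0.92 ± 0.13 and -0.93 ± 0.18). Ccl5, the one gene of the 10 without an ATTTA pentamer, had the narrowest range of levels among the genes with reads in every group. The highest group mean was 41.1 times the lowest for Xcl1 (1 pentamer) and 35.7 times for Ccl4 (2). It was 49.6 times for Tnf (8) and 101 times for Csf2 (9). This is a description over few genes, and a link of pentamers to range was not tested.

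The genes whose levels ran most like each member over the 10 libraries were found among 8431 candidates by Pearson r of log2(CPM + 1). The libraries come as 5 groups of 2, so these values describe group patterns. Ifng was nearest to Chsy1 (0.962), Apobr (0.956) and Elovl1 (0.952). Tnf ran with Chaf1a (0.995), Ska3 (0.994) and Cenpn (0.994), genes of chromatin assembly and chromosome segregation. Lta was nearest to Tnfsf11 (0.981), Agfg2 (0.978) and Bcl2l1 (0.970), the last encoding a survival factor. For Il2 they were Ptpre (0.965), Tbc1d4 (0.964) and Sntb1 (0.957), for Il10 B4galnt4 (0.982), Acsf2 (0.979) and Vwa5a (0.950), and for Csf2 Fam92a (0.986), Phf11b (0.980) and Hnrnpul1 (0.978). Ccl3 and Ccl4 were each among the other's nearest 3 (r = 0.939). Ccl3 was also near Il15ra (0.925) and Dnajc15 (0.920), and Ccl4 near Emc3 (0.948) and Gzma, which encodes granzyme A (0.945). Gzma was high in IL-21 (a mean of 311 RPKM) and between 5.06 and 9.78 in the other groups. Ccl5 was nearest to Gimap3 (0.978), Spo11 (0.966) and Slc43a1 (0.965), and Xcl1 to Ppp1r11 (0.958), Ms4a4c (0.936) and the chemokine receptor gene Cxcr3 (0.932). Among the 10 themselves Ifng went with Ccl4 (r = 0.889) and Il10 (0.855), and Tnf with Lta (0.890), while Ifng and Lta were at 0.0311.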

How the data were processed

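mRNA libraries made from 500 ng RNA were sequenced for 10 samples, 2 in each of 5 groups. The deposited counts are reads per transcript and the deposited RPKM values are the authors' own, per the file headers. Per the submitters' processing notes, the tools were Bowtie2 2.2.6, TopHat2 2.2.1, SAMtools 0.1.8, bedtools 2.25.0 and edgeR, with mm10 as the build. Strand use in counting was not stated in those notes. The files list 31682 transcripts of 23992 symbols, and the transcript with the most reads stood for each symbol.

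The edgeR package (4.0.16, R 4.3.3) tested the counts (filterByExpr with a minimum count of 10 and a minimum total of 15, TMM, robust quasi-likelihood, two-sided). The 5 groups were fitted together on 14357 genes, with 5 residual degrees of freedom. The common BCV (biological coefficient of variation, edgeR's name for variation between libraries beyond counting error) was 0.171, and that variation may be technical. Benjamini-Hochberg adjustment ran within each of 9 comparisons, with 0.05 as the threshold. A standard error is the log2 fold change divided by the square root of F. Where a group held at most 3 reads, the ratio is given with its exact 95% counting interval, or as a bound against 3 counts over the group, and both cover counting error only. A list's median was also taken with such genes at their bound.

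Alternatives were DESeq2 1.42.0, RLE factors, scaling by library size only, all genes without the low-count filter, an RPKM of 5 in 2 libraries, limma 3.58.1 on log2(RPKM + 1), only the groups compared, the replicate block, the longest transcript, and 10 fits that left out 1 library each. The edgeR fit was tested on simulated data. All 10 genes are described. From each list, up to 6 genes with the lowest p and a mean of at least 5 RPKM in a group are named, and 3 genes most like each member. A gene that this rule names is not reported here. Ncr1, Cd4, Tyrobp, Ctss and Lyz2 were singled out from the marker lists after their values were seen. The genes and lists were chosen with earlier results of these data known. Promoters are from RefSeq (GRCm38.p6), and gene positions and 3′ UTRs from GENCODE. Tables were joined and drawn with Python 3.11.15, pandas 2.3.3, numpy 2.4.6 and matplotlib 3.10.9.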

Additional observations from a re-analysis of the deposited data

Results flagged for a closer look

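For 9 of the 10 genes the change with the LDH inhibitor differed between IL-21 and IL-2 by the interaction term of the edgeR fit (change in IL-21 minus change in IL-2, n = 2 libraries per group). The log2 difference was -5.92 for Ifng, -5.82 for Ccl3, -5.79 for Ccl4 and -5.78 for Xcl1. It was -3.51 for Tnf, -3.30 for Csf2, -2.46 for Ccl5 and -0.96 for Lta. For Il2 the fitted value was -7.34, but IL-21 + LDHi had 0 reads, so this value depends on the prior count of the fit and is no measure of size. All 9 had the same sign, and in IL-2 the inhibitor changed only Il2, Il10, Csf2 and Xcl1 past the threshold.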

How the results depend on the processing

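Of 64 called effects of the 10 genes, 50 kept their call and direction under every alternative in which the gene was tested. Of 1672 recomputed effects 1576 kept direction and side of the threshold. Leaving out 1 library each gave 6 to 9 called genes for IL-2 against NC, 4 to 6 for IL-21 against NC, 7 to 8 for IL-21 against IL-2, 2 to 4 for the inhibitor in IL-2, 8 to 10 for the inhibitor in IL-21, 6 to 8 under the inhibitor, 6 to 9 for the interaction, 4 to 4 for IL-2 + LDHi and 8 to 9 for IL-21 + LDHi against NC. With an RPKM of 5 in 2 libraries, which left out Il2, Il10 and Csf2, the counts were 5 for IL-2 against NC and 1 for the inhibitor in IL-2. Directions turned for Ccl5 in IL-21 against NC without NC replicate 1 or IL-21 replicate 2 (-0.62 to 0.37 over the fits without 1 library), for the inhibitor effect in IL-2 on Ifng (-0.065 to 0.30) and Ccl3 (-0.23 to 1.34) without IL-2 replicate 1, and for that on Tnf with library size alone (0.082), with limma (0.015), and without IL-2 replicate 1 or IL-2 + LDHi replicate 1 (-0.22 to 0.19). They turned for the interaction with limma for Il10 (-1.59, adjusted p = 0.00514) and Csf2 (0.093), for Ccl4 in IL-2 + LDHi against NC without NC replicate 2 (-0.27 to 0.0046), and for Il10 in IL-21 + LDHi against NC without IL-21 + LDHi replicate 1 (-0.80 to 2.28), and the cause was not tested.

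Same-numbered libraries deviated together in 4 of 10 pairs of groups (r over 0.1) and oppositely in 4 (r from -0.246 to 0.592), so they share only a number. With the replicate block 8, 5, 7, 3, 10, 9, 9, 4 and 9 genes were called in the 9 comparisons in the above order, with Il2 lost for the inhibitor in IL-2 (adjusted p = 0.0710) and Il10 gained under the inhibitor (0.0468). Over all genes, the calls ran from 4484 to 8911 (7246 in the reported fit) for IL-2 against NC, 91 to 3967 (1657) for IL-21 against NC, 4349 to 8370 (7123) for IL-21 against IL-2, 3113 to 9070 (5657) and 2259 to 6660 (4500) for the inhibitor in IL-2 and IL-21, 2056 to 7352 (3741) under it, 1742 to 5201 (3122) for the interaction, and 1556 to 5192 (3474) and 2985 to 6861 (5322) for IL-2 + LDHi and IL-21 + LDHi against NC. Library size alone moved the median of all genes to -0.17, 0.13, -0.22 and -0.11 for IL-2 against NC, the inhibitor in IL-2, the interaction and IL-21 + LDHi against NC. It moved the share of higher calls from 48.9 to 37.2% for IL-21 against NC, 45.2 to 56.3% for the inhibitor in IL-2 and 36.7 to 25.3% for the interaction, and changed no call of the 10 genes. On the compared groups alone, Lta with the inhibitor in IL-2 (adjusted p = 0.00786), Ccl5 under the inhibitor (0.00261) and Xcl1 in IL-2 + LDHi against NC (0.0123) were called, and with limma Il2 was called against NC in IL-21 (0.0168) and, with the inhibitor, in IL-2 (0.0445). Depth limits Il2, Il10 and Csf2, which had 3 reads or fewer in at least 1 group.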
